A study of Mus musculus with 6 samples.

Results

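Ccno, which encodes cyclin O, sits on mouse chromosome 13 between Dhx29, Skiv2l2 and Ppap2a on its upstream side and Cdc20b and Gpx8 on its downstream side. These 6 gene symbols were taken by place, to see whether a difference between Ahr+/+ and Ahr-/- B cells at Ccno extended to the genes beside it. A row was found for 5 of the 6 symbols among the 23420 rows of the count table. Cdc20b had no row under its name or an older symbol and was not analysed here. Ccno itself was known from the study for its difference between genotypes, so its values are given as a description.

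RNA came from splenic B cells of 3 Ahr+/+ and 3 Ahr-/- mice, with C57Bl/6J as the labelled background strain of both, and each mouse gave 1 library. Cells of both genotypes were kept for 8 h in IMDM with 5% FCS, α-IgM at 10 µg/ml to engage the BCR, and IL-4 at 20 ng/ml. FICZ, a tryptophan-derived ligand of the aryl hydrocarbon receptor (AhR), was added at 250 nM for the last 4 h. Every library had received both the activation and the ligand, so genotype is the only contrast. In the study's methods Ahr-/- names a germline line (B6.129-Ahr tm1Bra/J), in which every cell of the mouse carries the mutation. The study's figure legends also call B cells with a Cre-driven deletion Ahr-/-, and the labels give only the genotype. B cells were enriched with a bead-based isolation kit, and mice were matched for age and gender. The methods set a minimum age, and individual ages were not given in the sources used here. The labels number the replicates 1 to 3 in each group. That each is a separate mouse comes from the study's text, and neither source speaks of litters or days of preparation.

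AhR is a ligand-activated transcription factor that pairs with ARNT and binds DNA at elements built around the core GCGTG, which in genes such as Cyp1a1 lie upstream of the start site. Cyclin O is best known from multiciliated epithelial cells, in which it is needed for the mass production of centrioles that become the bases of cilia. The stretch around Ccno holds other genes of that programme: Mcidas, listed in the table under its older symbol Mcin, encodes a coregulator that sets the multiciliated fate, and Cdc20b carries the miR-449 microRNAs in its intron. Dhx29, Skiv2l2 and Ppap2a have unrelated roles in translation, RNA decay and lipid dephosphorylation.

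Total counts were between 22095096 and 53648787 per library, and 3 counts, taken as the smallest level that these depths show, corresponded to 0.0559 to 0.136 CPM, the counts scaled to a common library size, for counting error only. Ahr, the targeted gene, was at 13175 ± 682 (SD, n = 3) normalized counts in Ahr+/+ cells and lower, with no overlap, at 9174 ± 472 (SD, n = 3) in Ahr-/- cells. Counts over the whole gene do not show which exons remain. Cyp1a1, the classical target of AhR, gave 5120, 5404 and 4743 counts with Ahr and 4, 4 and 7 without it. Summed markers of B cells were higher in Ahr-/- libraries (82451 to 86255 normalized counts against 69381 to 73135), with 4 of 6 called higher, and all 6 were detected. Of 5 plasmacytoid dendritic cell markers 4 were called higher, among them Siglech at 269.7 ± 32.3 against 56.8 ± 4.19 normalized counts (SD, n = 3 each). All 5 summed to 2748 to 3800 against 2294 to 2667, mostly Bst2, which was not called. Of 9 T and NK cell markers 1 was lower and 2 were higher, with sums of 6192 to 7050 against 6092 to 6513 that were mostly Lck. Of 6 conventional dendritic cell markers 3 were higher and 1 lower, with overlapping sums of 844 to 1012 against 804 to 928. Zbtb46, the largest part of these sums, was the marker called lower (552 ± 23.9 to 418 ± 23.2 normalized counts, SD, n = 3 each). Those called higher were Itgax, Clec9a and Clec10a. Of 6 monocyte, macrophage and neutrophil markers 1, Emr1, was lower (649.7 ± 14.7 to 54.1 ± 16.1 normalized counts, SD, n = 3 each). The 6 summed to 302 to 1032 against 853 to 1277, and the other 5, none of them called, had log2 fold changes between 0.21 and 0.88. Erythroid and platelet markers summed to at most 29.2, with Hbb-b1 and Hba-a1 at 0. Over all tested genes 8.13% were called lower and 9.79% higher, and all these calls are by edgeR at an adjusted p under 0.05. The part of cell composition in the values below was not tested, and in bulk RNA fewer cells of a type and less RNA per cell cannot be told apart.

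Promoters are shown because those of Ccno, Dhx29, Skiv2l2 and Mcin all hold the AhR core, with the longer motif TNGCGTG at Ccno alone among them, and because Skiv2l2 and Dhx29 share 1 promoter stretch. Sequences are those of RefSeq for GRCm38.p6, read 5′ to 3′, with capitals for the core GCGTG or, where it lies on the other strand, its complement CACGC. The first lies at chr13:112987552-112987801 on the forward strand and holds the 250 bases before the start of Ccno.
Ccno upstream: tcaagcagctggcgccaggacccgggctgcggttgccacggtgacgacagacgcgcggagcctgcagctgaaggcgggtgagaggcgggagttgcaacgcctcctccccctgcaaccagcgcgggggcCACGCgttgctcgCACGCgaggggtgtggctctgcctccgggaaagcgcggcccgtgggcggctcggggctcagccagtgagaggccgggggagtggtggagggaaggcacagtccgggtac
The second lies at chr13:112927399-112927453 and is the whole stretch between the annotated ends of Skiv2l2, on the reverse strand, and Dhx29, on the forward strand. It holds no core, and the core that both windows share lies outside it, inside the annotated Dhx29 gene.
Between Skiv2l2 and Dhx29: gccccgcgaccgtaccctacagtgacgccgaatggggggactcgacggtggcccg

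The Ccno window of 300 bases, which runs from 250 bases before to 50 bases after the start site, held 2 cores. Both lay on the reverse strand, with the base farthest upstream of the start at -122 and -109, which serve as their labels. In 25 bases around each, read on the strand of the core, they were as follows.
Ccno core at -122: tgcgagcaacGCGTGgcccccgcgc
Ccno core at -109: cacacccctcGCGTGcgagcaacgc
The core at -109 stood within the longer motif TNGCGTG, in which N is any base, and the core at -122 did not. Searched on both strands, GCGTG was present in 32.4% of all 32851 windows in the table, 2 or more copies in 11.1%, and TNGCGTG in 5.07%. The Ccno window was 72.0% G and C, against a median of 52.7% over all windows. The longer motif includes the core, so these shares overlap.

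Cores were also found next to genes whose levels lay close in the genotypes. The Dhx29 window held 2 and the Skiv2l2 window 1, of which 1 at chr13:112927486-112927490 lay in both windows.
Shared core of Skiv2l2 and Dhx29: cttgagccccGCGTGacttttctcc
Second core of Dhx29: ctgggtggagGCGTGggagccggca
The window of Mcin held 2 cores, and those of Cdc20b and Gpx8 held none. The window of Ppap2a was not in the table. A match of these letters describes the sequence and does not show a binding site. For Ccno, the study separately reported AhR at the promoter by chromatin immunoprecipitation, which these libraries do not measure.

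Ccno, on the forward strand at chr13:112987802-112990777 (ENSMUSG00000042417.5, GRCm38), was nearly absent from Ahr-/- B cells. Reads numbered 107, 109 and 88 in the 3 Ahr+/+ libraries, but 1, 0 and 1 in those without Ahr. After scaling to a common library size these were 104 ± 5.42 (SD, n = 3) and 0.876 ± 0.859 (SD, n = 3) normalized counts. No Ahr-/- library came near the lowest Ahr+/+ library, and every Ahr-/- value lay below the 3 counts taken as the smallest level. Summed over libraries, 304 counts against 2 gave a 161-fold higher level in Ahr+/+ cells, with an exact 95% interval of 44.2 to 1335 that covers counting error only. In CPM these were 2.71 and 0.0169. The fitted log2 fold change of -7.07 (standard error 0.39) depends on the prior count, since Ahr-/- cells had so few counts, and is no bound.

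Dhx29, the nearest upstream neighbour with a row, is a DEAH-box helicase that helps the small ribosomal subunit scan structured mRNAs. It lies on the forward strand at chr13:112927454-112969432 (ENSMUSG00000042426.6) and ends 18.4 kb before Ccno begins. Normalized counts of Dhx29 came to 2997, 3053 and 3111 with Ahr and to 3040, 2988 and 2934 without it. The genotypes overlapped, with means of 3053 ± 57.2 and 2987 ± 52.7 (SD, n = 3 each). On the log2 scale the difference was -0.03 (standard error 0.037, edgeR adjusted p = 0.62), equal to a change of -2.22% with a 95% interval from -7.49% to 3.35%. A fall of Dhx29 of more than 7.49% therefore lay outside the interval.

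Skiv2l2, now named Mtrex, encodes MTR4, the helicase that feeds nuclear RNA into the exosome. It lies on the reverse strand at chr13:112867418-112927398 (ENSMUSG00000016018.4), 60.4 kb from Ccno and only 55 bases from Dhx29, on the other strand. Normalized counts of Skiv2l2 came to 7648, 7314 and 7753 with Ahr and to 6944, 7099 and 6937 without it, so that the genotypes did not overlap. The means were 7571 ± 229 and 6993 ± 91.9 (SD, n = 3 each), a log2 difference of -0.11 (standard error 0.037, edgeR adjusted p = 0.052). This was just outside the threshold of 0.05, and it passed in 6 of 16 alternative settings, among them DESeq2 with an adjusted p of 0.0239 and edgeR without Ahr+/+ replicate 2 with an adjusted p of 0.0292. The change was -7.61%, with a 95% interval from -12.6% to -2.30%. Over all tested genes, genotypes did not overlap for 33.5%.

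Ppap2a, now named Plpp1, encodes a membrane phosphatase that removes phosphate from lysophosphatidic acid and related lipids. It lies on the forward strand at chr13:112800792-112867894 (ENSMUSG00000021759.14), 119.9 kb upstream of Ccno. Normalized counts of Ppap2a came to 23.3, 45.3 and 35.9 with Ahr and to 46.3, 46.9 and 35.6 without it. The ranges overlapped, with means of 34.8 ± 11.0 and 42.9 ± 6.40 (SD, n = 3 each) and a log2 difference of 0.30 (standard error 0.26, edgeR adjusted p = 0.49). The 95% interval on the log2 scale went from -0.26 to 0.86, with 24 to 66 counts a library behind it. Its 3′ end overlaps that of the far more abundant Skiv2l2 by 477 bases on the opposite strand. The sources used here do not say if counting used strand, so the counts of Ppap2a are uncertain to that extent.

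Gpx8, a glutathione peroxidase of the endoplasmic reticulum, had no counts in any Ahr+/+ library and 1 count in 1 Ahr-/- library. It lies on the reverse strand at chr13:113042753-113046410 (ENSMUSG00000021760.5), wholly inside Cdc20b, and was left out of the test by the minimum of 10 counts over the 6 libraries. No fold is given, since both genotypes were at or under 3 counts. Cdc20b, a relative of the APC/C activator CDC20, spans chr13:113035111-113091195 on the forward strand. The rows of the miR-449 genes in its intron held no counts, but libraries made from poly-A RNA are not a measure of mature microRNAs. Mcin, which begins 3.07 kb after the end of Ccno and is its closest neighbour with a row, also had no counts in any library.

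Among the members that could be tested, 1 of 4 was called at an adjusted p under 0.05 by edgeR, and this was Ccno. Over all 13682 tested genes, 17.9% were called, 8.13% lower and 9.79% higher in Ahr-/- cells. Of the 3 tested neighbours, 0 were called by edgeR, 1 (Skiv2l2) had an unadjusted p under 0.05, and 1 (Skiv2l2) was called by DESeq2. Because Ccno was known beforehand for its fall, its call adds nothing to that count.

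**Figure D1:**
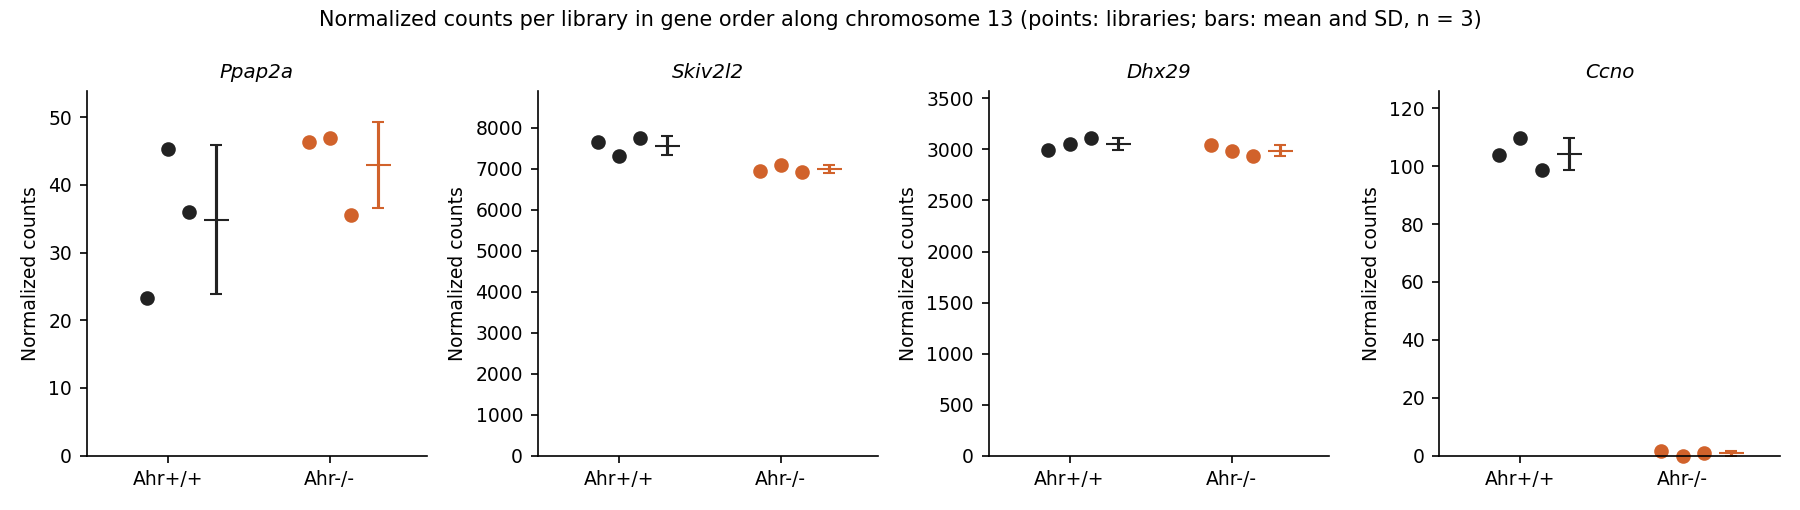
Normalized counts (vertical axes from 0, each with its own scale) of Ppap2a, Skiv2l2, Dhx29 and Ccno in gene order along chromosome 13, with 1 point per library and the mean and SD beside them (n = 3 per genotype). The 3 Ahr-/- points of Ccno lie at or near 0, whereas those of Skiv2l2 lie slightly below the Ahr+/+ points and those of Dhx29 and Ppap2a overlap them.

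Levels of different genes can be set side by side only per length, and here CPM per kb of annotated exon was used. In Ahr+/+ cells the order was Skiv2l2 at 30.8 ± 0.932, Dhx29 at 13.2 ± 0.247, Ccno at 1.06 ± 0.0552 and Ppap2a at 0.518 ± 0.164 (SD, n = 3 each). Each step in this order was larger than the spread of both genes. In Ahr-/- cells Skiv2l2 was at 28.4 ± 0.373, Dhx29 at 12.9 ± 0.228 and Ppap2a at 0.638 ± 0.0951, while Ccno was last at 0.00892 ± 0.00874 (SD, n = 3 each). Ccno and Ppap2a thus changed places in the order.

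A ratio of Ccno to a neighbour in the same library does not depend on how libraries were scaled. For every 1000 counts of Dhx29, the Ahr+/+ libraries gave 34.7, 35.9 and 31.8 counts of Ccno, compared with 0.565, 0 and 0.311 without Ahr. For every 1000 counts of Skiv2l2, the means were 13.8 ± 1.14 and 0.126 ± 0.124 (SD, n = 3 each). For every 1000 counts of Ppap2a, they were 3210 ± 1093 and 20.9 ± 19.0 (SD, n = 3 each), with as few as 24 counts of Ppap2a in a library. None of these ratios overlapped between genotypes. They restate the known difference of Ccno on a scale free of library size and are given with no test.

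**Figure D2:**
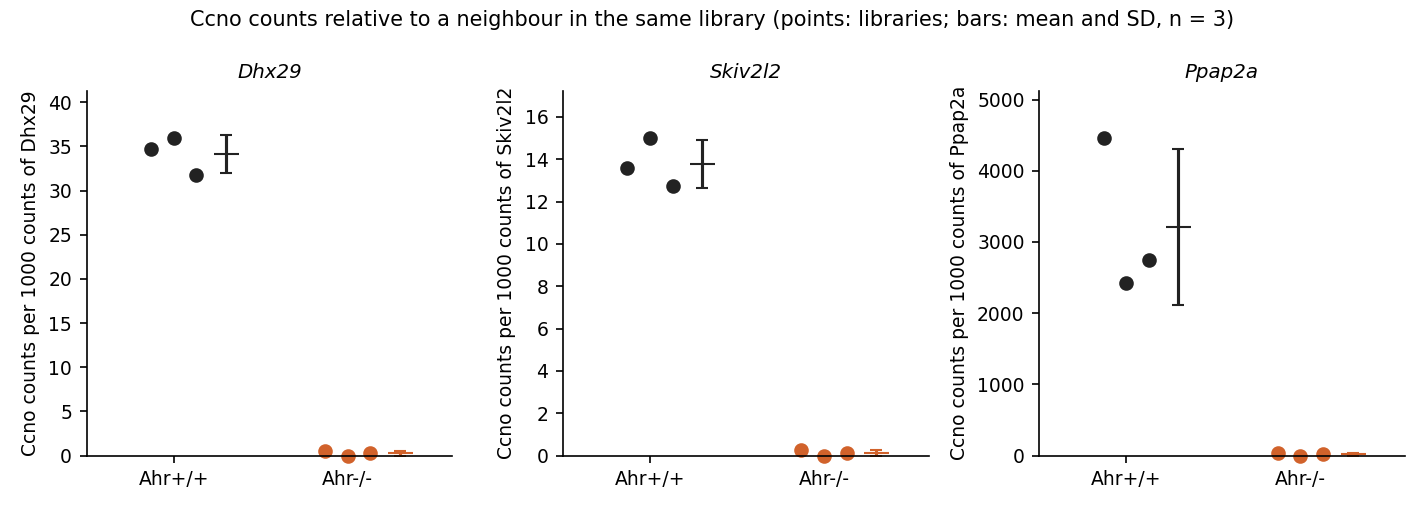
Ccno counts per 1000 counts of Dhx29, Skiv2l2 or Ppap2a in the same library (vertical axes from 0), with 1 point per library and the mean and SD (n = 3 per genotype). In each panel the Ahr-/- points lie at or near 0 and the lowest Ahr+/+ point stands far above them, at 31.8 for Dhx29.

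The divergent pair Skiv2l2 and Dhx29 could be compared in the same way. There were 2.55, 2.40 and 2.49 counts of Skiv2l2 for each count of Dhx29 in Ahr+/+ libraries and 2.28, 2.38 and 2.36 in Ahr-/- libraries. The ranges did not overlap, but the nearest values, 2.40 and 2.38, were close (means 2.48 ± 0.0789 and 2.34 ± 0.0498, SD, n = 3 each, two-sided exact permutation p = 0.1). With 3 libraries against 3, 0.1 is the smallest p that this test can give, so it could not pass 0.05.

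The wider neighbourhood was described to 1 Mb on each side of Ccno, where GENCODE annotates 54 genes, 19 of them protein-coding. A row was found for 21, of which 7 had no counts and 13 passed the minimum. Of these 13, Ccno was called lower by edgeR and Snx18, which encodes a sorting nexin of endosomal membranes, was called higher. The other 11 were not called, and the median log2 fold change of the 12 genes without Ccno was 0.10, against 0.0021 over all tested genes. Within 0.5 Mb, 0 of the 9 tested genes beside Ccno were called by edgeR, 2 (Gzma and Skiv2l2) had an unadjusted p under 0.05 and 1 (Skiv2l2) was called by DESeq2. On the whole of chromosome 13, 92 of 498 tested genes were called, which is 18.5%.

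Snx18, 601 kb downstream of Ccno, was at 868 ± 42.4 normalized counts with Ahr and at 1080 ± 50.1 without it (SD, n = 3 each). The log2 difference was 0.32 (standard error 0.057, edgeR adjusted p = 0.0016), opposite in sign to that of Ccno. Beyond the window, Map3k1, a kinase of the JNK and ERK pathways 1179 kb upstream, was also higher, at 7692 ± 634 against 5390 ± 427 normalized counts (SD, n = 3 each, log2 fold change 0.51, adjusted p = 1.1e-04 by edgeR). With the settings of this comparison no gene other than Ccno was called lower within 1 Mb, and Skiv2l2 was called lower as well in the 6 alternative settings in which it passed the threshold.

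Gzma, which encodes granzyme A of cytotoxic cells and lies 103 kb downstream of Ccno at its nearer end, was at 89.4, 143 and 119 normalized counts with Ahr and at 144, 216 and 129 without it. The genotypes overlapped (log2 fold change 0.51, standard error 0.21, adjusted p = 0.13 by edgeR), and it was called only without Ahr-/- replicate 3. Gzmk, the granzyme on its far side, had 12 counts in all and a log2 difference of -1.56 (standard error 0.95, edgeR adjusted p = 0.31). Both are known from T and NK cells rather than B cells. Of the 9 T and NK cell markers, which include both granzymes, Ncr1 and Klrb1c were called higher and Cd3e lower in Ahr-/- libraries by edgeR, beside 9.79% higher and 8.13% lower over all tested genes, and the other 6 were not called. Ncr1, with 12 to 50 counts a library, was only just under the threshold (adjusted p = 0.049 by edgeR). Adjusted p by edgeR was 0.028 for Klrb1c and 0.009 for Cd3e. These calls were not looked up in the alternative settings.

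The remaining tested genes of the window gave small or imprecise differences. Il6st, the shared receptor chain gp130, had a log2 fold change of 0.06 and Slc38a9, a lysosomal arginine sensor, of 0.14 (adjusted p = 0.45 and 0.30 by edgeR). Arl15 and Ddx4, the germ cell RNA helicase, gave -0.04 and -0.05 (adjusted p = 0.83 and 0.94 by edgeR). Il31ra and Ankrd55 gave 0.91 and 0.52 at means of 4.89 and 10.6 normalized counts in Ahr+/+ cells (adjusted p = 0.23 and 0.36 by edgeR).

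**Figure D3:**
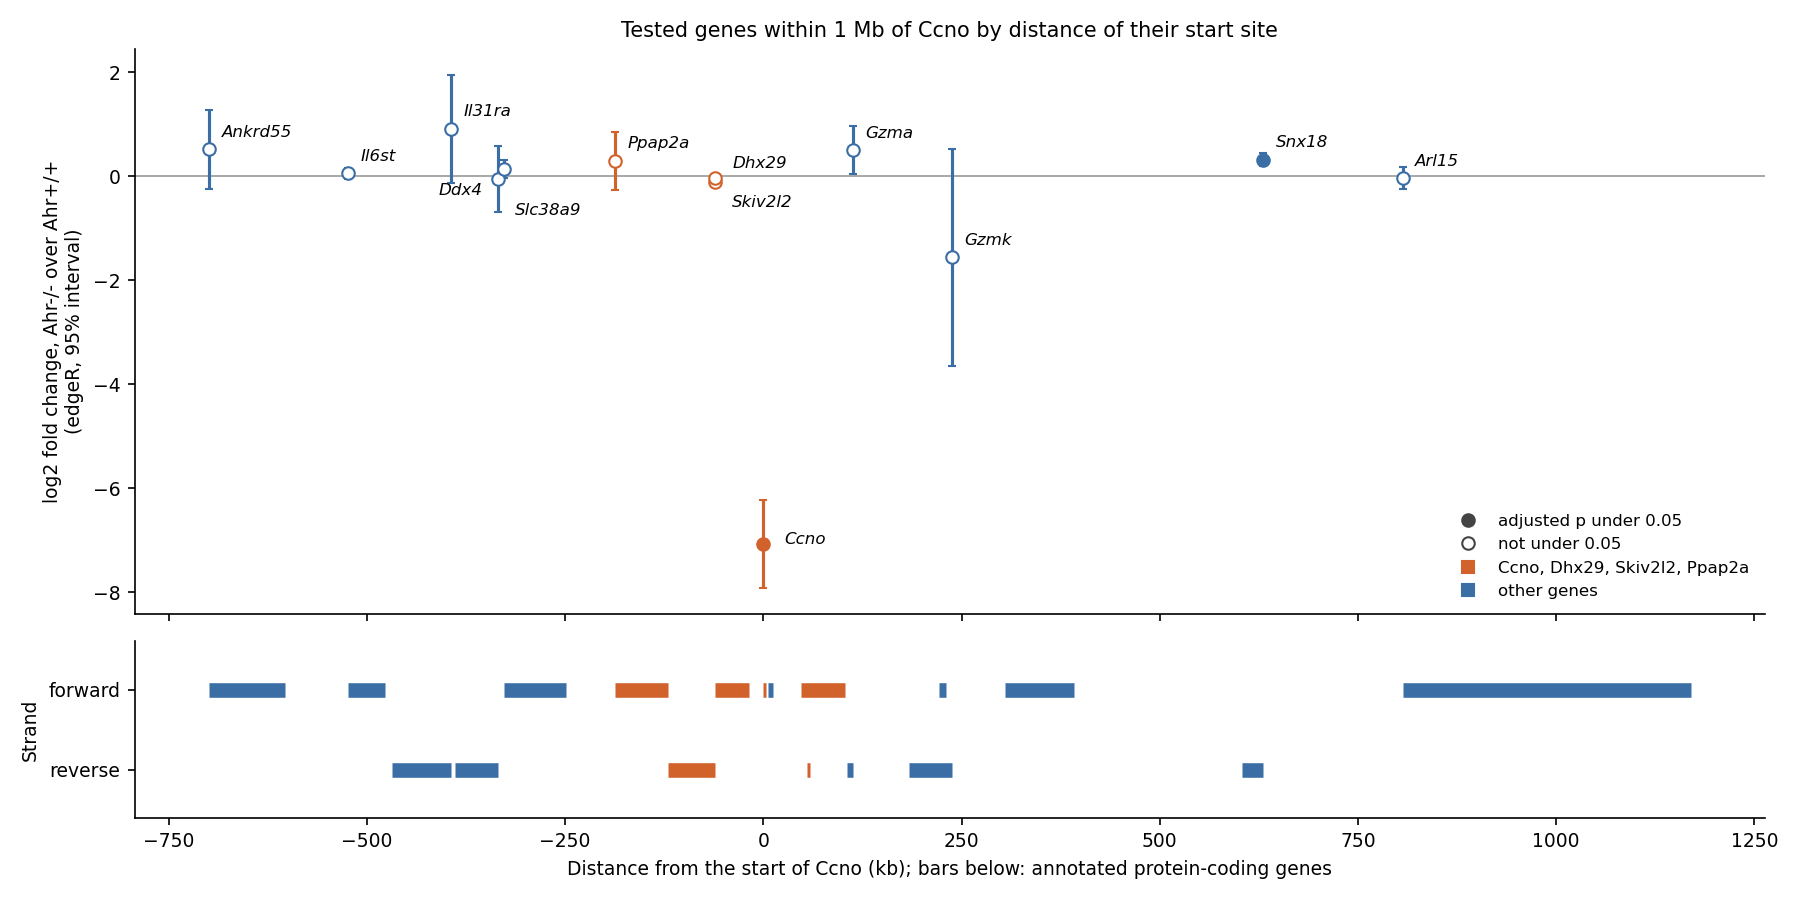
Upper panel, log2 fold change of Ahr-/- over Ahr+/+ with its 95% interval for each tested gene within 1 Mb, by distance of its start site from that of Ccno in kb, with filled points for an adjusted p under 0.05. Ccno stands alone at -7.07, the other points lie between -1.56 (Gzmk) and 0.91 (Il31ra), and only Snx18 is filled among them. The lower panel shows the spans of annotated protein-coding genes by strand. The unadjusted interval of Gzma lies above 0 and that of Skiv2l2 below 0, but both points are unfilled (adjusted p = 0.13 and 0.052 by edgeR).

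Partners of each member were read from the same fit, from lists of named genes, to see whether relatives of a member differed as well. Of 17 genes of the multiciliated and centriole programme, 14 were tested, and 1 was called higher and 0 lower by edgeR (9.79% and 8.13% of all tested genes), with a median log2 fold change of -0.014 over the list and 0.0021 over all tested genes. The 1 gene was Tfdp1, which encodes the DP1 partner of E2F factors (4691 ± 302 to 5243 ± 189 normalized counts, log2 fold change 0.16, adjusted p = 0.041), and it lost the call in 5 of 15 alternative settings, among them those without Ahr+/+ replicate 1 or 3 or Ahr-/- replicate 2 or 3. Mcin, Gmnc and Ccdc67, which act with cyclin O in multiciliated cells, had no counts. Plk4, the kinase that starts centriole duplication, had 808 ± 29.4 and 783 ± 41.4 normalized counts (SD, n = 3 each). Foxj1, which drives motile ciliogenesis, had 36.5 ± 10.3 and 33.3 ± 2.72 (SD, n = 3 each). Trp73, at 6.16 ± 6.52 and 0.876 ± 0.859 normalized counts, was not called (adjusted p = 0.091 by edgeR), and 3 genes of the list had an unadjusted p under 0.05. The ciliary markers Dnahc5, Dnahc9 and Tekt1 had no counts.

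For Cdc20b, which could not be measured, 7 relatives and partners around CDC20 and the anaphase-promoting complex were all tested. By edgeR 0 of the 7 were called (17.9% of all tested genes), by DESeq2 0, and 1 (Anapc11) had an unadjusted p under 0.05. Cdc20 had 382 ± 43.4 and 359 ± 21.5 and its relative Fzr1 had 2807 ± 14.2 and 2714 ± 86.7 normalized counts (SD, n = 3 each). For Gpx8, 8 of 11 glutathione peroxidases and endoplasmic reticulum oxidases were tested. Of these, 1 was called higher by edgeR (9.79% of all tested genes), Ero1lb (log2 fold change 0.14, adjusted p = 0.048), but 0 were called by DESeq2, and Ero1lb was not called without Ahr+/+ replicate 2 or 3 or Ahr-/- replicate 1 or 2. Gpx1 and Gpx4, the most abundant peroxidases of the list, had 3579 ± 118 and 1233 ± 49.5 normalized counts in Ahr+/+ cells against 3870 ± 102 and 1202 ± 83.6 (SD, n = 3 each).

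For Dhx29, all 11 scanning factors and helicases were tested, with 3 called lower and 0 higher by edgeR, beside 8.13% lower and 9.79% higher over all tested genes. The largest difference was at Eif1ax, the initiation factor that aids scanning and start codon choice, with 8719 ± 334 normalized counts in Ahr+/+ and 5639 ± 191 in Ahr-/- cells (SD, n = 3 each, log2 fold change -0.63, adjusted p = 4.4e-07 by edgeR). Eif1ax was called in all 15 alternative settings. The helicases Ddx3x and Eif4a1 changed less, by -0.13 and -0.10 on the log2 scale (adjusted p = 0.035 and 0.046 by edgeR), and kept their call in 8 and 5 of 15 settings. The call of Eif4a1 was lost with any 1 library left out, and that of Ddx3x with any but Ahr+/+ replicate 2. The median log2 fold change of the list was -0.050.

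For Skiv2l2, all 21 exosome subunits and cofactors were tested, with 2 called lower and 0 higher by edgeR. The share called lower is near the 8.13% of all tested genes, so the count is no result about the list. Papd7, a noncanonical poly(A) polymerase, fell from 2568 ± 34.6 to 2125 ± 21.6 normalized counts (SD, n = 3 each, log2 fold change -0.27, adjusted p = 1.6e-04). Zcchc7, the RNA-binding partner of MTR4 in the TRAMP complex, fell from 2630 ± 86.4 to 2298 ± 46.3 (SD, n = 3 each, log2 fold change -0.20, adjusted p = 0.0041). Both kept their call in all 15 alternative settings. The other 19 genes, among them the nuclease gene Dis3 at a log2 fold change of 0.0014 and Exosc10 at -0.07, were not called, and the median of the list was -0.035.

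For Ppap2a, 11 of 14 lipid phosphate enzymes and receptors were tested, with 1 called lower and 2 higher by edgeR, beside 8.13% and 9.79% of all tested genes. Lpar6, a receptor for lysophosphatidic acid, fell from 199 ± 25.3 to 94.2 ± 14.5 normalized counts (SD, n = 3 each, log2 fold change -1.11, adjusted p = 1.6e-04). Sgpl1, which irreversibly cleaves sphingosine-1-phosphate, rose from 5697 ± 83.8 to 7758 ± 86.0 (SD, n = 3 each, log2 fold change 0.45, adjusted p = 1.9e-06). Lpar3 rose from 3.32 ± 2.37 to 11.7 ± 3.86 (SD, n = 3 each, log2 fold change 1.73, adjusted p = 0.041) but was not called by DESeq2 or without Ahr+/+ replicate 2 or 3 or Ahr-/- replicate 1 or 2. The close relatives Ppap2b and Ppap2c were not called.

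A search over the whole table asked how many genes shared the near loss of Ccno. Of 10540 genes with at least 30 counts in each Ahr+/+ library, 4 had at most 3 counts in each Ahr-/- library, and 0 genes met the reverse rule. The limit is on counts and not on fold, so it leaves out Cyp1a1, which had 4, 4 and 7 counts in Ahr-/- libraries and a larger fitted log2 difference (-10.04) than Ccno (-7.07). The 4 genes that met the rule were Ahrr, the AhR repressor, Cyp1b1, a cytochrome P450, Ccno and Sema3b, a secreted semaphorin. Per length, their Ahr+/+ levels were 1.06 ± 0.0552 CPM per kb of exon for Ccno, 1.02 ± 0.0393 for Cyp1b1, 0.908 ± 0.0890 for Ahrr and 0.267 ± 0.0122 for Sema3b (SD, n = 3 each), and mean ± SD overlapped between Ccno and Cyp1b1 and between Cyp1b1 and Ahrr. Ahrr had 311, 319 and 325 counts against 2, 3 and 0, and Cyp1b1 had 233, 221 and 213 against 0, 0 and 0. Sema3b had 53, 48 and 42 counts against 0, 1 and 2. Ahrr is also on chromosome 13, but 38.8 Mb from Ccno, and the other 2 genes are on chromosomes 17 and 9.

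**Figure D4:**
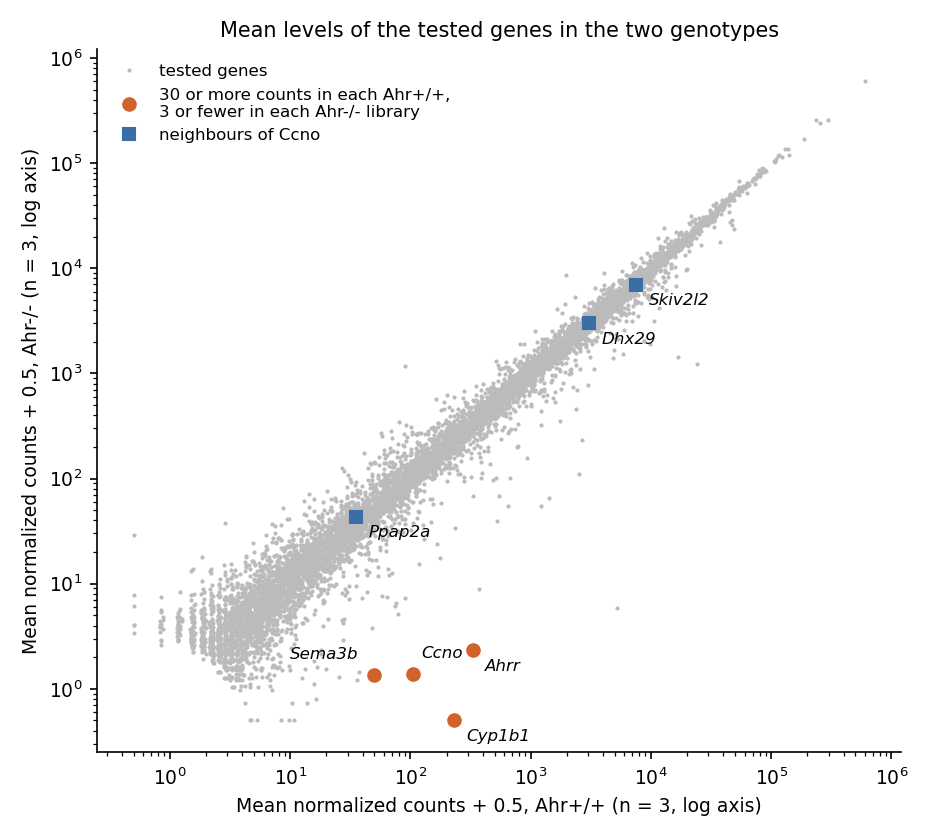
Mean normalized counts plus 0.5 in Ahr+/+ (horizontal) and Ahr-/- cells (vertical, both log axes, n = 3 each) for the 13682 tested genes. The 4 genes with at least 30 counts in each Ahr+/+ library and at most 3 in each Ahr-/- library, Ccno among them, lie at the bottom, while Dhx29, Skiv2l2 and Ppap2a lie in the band of the other genes.

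The likeness of other genes to Ccno was also measured by Pearson's r of log2 CPM over the 6 libraries, which mostly reflects the gap between genotypes. Among 12016 candidate genes, the 5 highest were Btrc (0.9999), Scd1 (0.9993), Gm16998 (0.9988), Cyp1a1 (0.9988) and Cytip (0.9987), and 102 genes were over 0.99. These genes differed far less between genotypes than Ccno did, except Cyp1a1, with log2 fold changes of -0.89 for Btrc, -1.06 for Scd1, -1.98 for Gm16998 and -1.20 for Cytip. None of them is on chromosome 13.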

How the data were processed

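Splenic B cells of 3 Ahr+/+ and 3 Ahr-/- mice were analysed from the count table, and group labels came from the sample titles. The authors deposited whole-number counts of reads per gene without normalization. According to the submitters' processing notes, TopHat2, HTSeq, DESeq and mm10 were used, and the strand setting was not given in the sources used here. The 6 columns of normalized counts and the authors' own comparison (base means, fold changes and p-values) were not used. Libraries were poly-A selected and stranded.

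Genes were kept if their counts summed to 10 or more over all 6 libraries, and these 13682 were fitted with edgeR 4.0.16 (TMM, quasi-likelihood test, prior count 0.125) in R 4.3.3, with genotype as the only term and Benjamini-Hochberg adjustment over all of them. The test was checked on simulated data. The p-values measure the spread between these mice. Normalized counts are counts divided by the TMM-scaled library size relative to the mean of the 6. DESeq2 1.42.0, other scalings and filters, a replicate block, and each library left out were the alternatives. Members, gene lists and alternatives were chosen with earlier results of these data known, and 1 scaling to chromosome 13 genes was added after seeing the data.

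Positions are from GENCODE for GRCm38; of the table's symbols 21751 matched by name, 1259 by an older symbol and 410 not at all. Named were the 6 members, each tested gene within 1 Mb, up to 3 called genes per list, Ahr, and the genes most like Ccno by the rules stated with them; other list genes, Map3k1 and the cell type markers were picked after their values were seen. Replicates differed by more than sampling noise (chi-square per degree of freedom 3.59 to 8.32), so none was counted as a duplicate.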

Additional observations from a re-analysis of the deposited data

How the results depend on the processing

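The log2 fold change of Ccno was between -7.66 and -5.32 over 16 alternatives, that of Dhx29 between -0.05 and -0.01 and that of Ppap2a between 0.07 and 0.54, and no sign changed. Skiv2l2 passed the threshold in 6 of 16, with adjusted p from 0.024 to 0.18. Among the 16, the prior count of 2 and the threshold of 0.01 kept its adjusted p of 0.052 from the main edgeR fit. Neither could add a call, and the threshold of 0.01 also left every fold change as it was. With Skiv2l2 added, 2 members were called in each of those 6: the Wald test of DESeq2 (log2 fold change -0.12), size factors of DESeq2 in edgeR (-0.12), a robust fit (-0.11), a minimum of 10 counts in 3 or more libraries (-0.11), scaling to chromosome 13 genes outside 2 Mb of Ccno, chosen after seeing the data (-0.12), and leaving out Ahr+/+ replicate 2 (-0.14). With each library left out, Skiv2l2 lay between -0.14 and -0.10, and 1 to 2 members were called. The cause was not tested. At an adjusted p under 0.01, 1473 genes were called in place of 2453, and with each library left out 1664 to 2601, fewest without Ahr-/- replicate 2. Within 0.5 Mb of Ccno 1 gene was called in place of 2, since Snx18 lies farther off. Deviations of same-numbered libraries from their genotype's mean had correlations of -0.0299, 0.12 and -0.0448. Those of differently numbered libraries ran from -0.179 to 0.183. With so few libraries these values cannot show whether same-numbered libraries shared a day or a litter. With the replicate block 2304 genes were called, Ccno was the 1 member called, and Skiv2l2 was not. With library size alone 919 genes were lower and 1621 higher, against 1113 and 1340. With 3 mice a genotype, Ppap2a could show only large differences, and Gpx8 none.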
